A study of Mus musculus with 4 samples.

Results

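The subject here is a set of 10 genes at the centre of the p53 response and of cell cycle arrest, examined in mouse lung tumours driven by oncogenic K-Ras, with and without Mll4. They were picked by symbol out of the 24391 genes listed in each count file: Trp53, Mdm2, Cdkn1a, Ccng1, Eda2r, Bax, Bbc3, Cdkn2a, Cdkn2b and Cdkn1b. All 10 were listed in every file and all 10 passed the filter on low counts. RNA sequencing had been done on 4 lung tumour samples. The 2 K-Ras samples came from mice with the K-Ras LSL-G12D allele, a mutant K-Ras kept silent by a floxed stop until Cre removes it. The 2 K-Ras Mll4-/- samples carried the same K-Ras allele, and the series text gives their Mll4 as floxed (Mll4 fl/fl). All 4 samples therefore shared mutant K-Ras, and there was no normal lung and no tumour without mutant K-Ras. The source of Cre, the strain, the age of the mice and whether a sample was 1 tumour or a pool are not given in the sources used here. Before RNA extraction the tissue had been made into a cell suspension and cells bearing the leukocyte antigen CD45 had been removed on magnetic beads. The labels number the samples of a group without saying that they came from separate mice, so the p-values measure the spread between these samples only.

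p53, the product of Trp53, is a transcription factor that damage and oncogene stress stabilise. It switches on genes that halt the cell cycle, repair DNA or kill the cell, and it switches on Mdm2, whose product marks p53 for destruction. The Cdkn2a locus feeds into the same pathway. Its Arf product holds Mdm2 in check, while its p16 product, like the p15 product of the neighbouring Cdkn2b, blocks the cyclin D kinases CDK4 and CDK6 and so keeps the RB protein active. In mouse lung, K-Ras tumours are known to progress further when p53 or Cdkn2a is lost.

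Sequences upstream of the annotated starts of 4 p53 target genes are shown first, because p53 recognises a known DNA element and these genes differed in how their transcripts compared between the groups. Each line holds the 250 bases before a start, taken by symbol from RefSeq (GRCm38.p6). The deposited files were made on mm9, so the positions are those of the RefSeq table and not of the files. All 10 genes had at least 1 entry. Capitals mark matches to the p53 element, which is a pair of half-site decamers with a spacer of 0 to 13 bases. A pair was accepted with at most 2 mismatches in all and with the central C and G of each half-site kept, and a perfect half-site standing alone was also put in capitals. Where accepted pairs share or overlap a half-site, all of their half-sites are in capitals.
Ccng1, chr11:40755287-40755536, minus strand: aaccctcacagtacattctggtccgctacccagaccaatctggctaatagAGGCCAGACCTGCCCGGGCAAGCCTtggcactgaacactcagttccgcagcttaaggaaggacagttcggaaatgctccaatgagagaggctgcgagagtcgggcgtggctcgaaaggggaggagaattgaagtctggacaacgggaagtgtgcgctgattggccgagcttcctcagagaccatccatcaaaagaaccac
Cdkn1a, upstream start, chr17:29090729-29090978, plus strand: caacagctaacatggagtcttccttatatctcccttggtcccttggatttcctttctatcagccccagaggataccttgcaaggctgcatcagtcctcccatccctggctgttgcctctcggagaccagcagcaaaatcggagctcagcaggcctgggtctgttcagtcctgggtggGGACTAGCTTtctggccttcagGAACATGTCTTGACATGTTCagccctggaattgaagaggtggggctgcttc
Bax, chr7:45466899-45467148, minus strand: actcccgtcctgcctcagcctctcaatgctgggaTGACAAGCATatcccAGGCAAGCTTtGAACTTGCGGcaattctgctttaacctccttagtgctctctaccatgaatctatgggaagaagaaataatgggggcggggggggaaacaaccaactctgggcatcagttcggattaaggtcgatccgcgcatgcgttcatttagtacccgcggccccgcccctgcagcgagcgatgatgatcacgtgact
Eda2r, chrX:97377210-97377459, minus strand: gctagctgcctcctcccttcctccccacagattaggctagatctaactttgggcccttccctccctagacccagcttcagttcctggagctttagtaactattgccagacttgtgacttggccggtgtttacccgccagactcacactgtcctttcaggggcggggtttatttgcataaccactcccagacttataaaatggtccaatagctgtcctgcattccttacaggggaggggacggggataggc
The search covered 300 bases per start, including the 50 after it, and a half-site matches on both strands because its pattern reads the same on either. In the Ccng1 window a pair with 1 mismatch and no spacer began at position -195, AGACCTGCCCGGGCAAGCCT, and a second pair that ends in the same half-site began at -200, with 2 mismatches and a spacer of 5 bases. At the upstream start of Cdkn1a a pair with 0 mismatches and a spacer of 12 bases began at position -73, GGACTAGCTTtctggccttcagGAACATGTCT. Its second half-site opened another pair there, with 1 mismatch and no spacer, at position -51, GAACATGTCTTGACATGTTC. Bax had a pair with 2 mismatches and a spacer of 1 base at position -201, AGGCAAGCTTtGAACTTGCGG, and one with 2 mismatches and a spacer of 5 bases at -216 that ends in the first half-site of the former. Trp53 and Mdm2 held a single perfect half-site, at positions -75 and -186, and no pair. No pair or perfect half-site was found in the windows of Eda2r, Bbc3, Cdkn2a, Cdkn2b or Cdkn1b, or at the downstream start of Cdkn1a, which says only that these letters are not in those windows. Among 32851 RefSeq windows of this length, 4.09% held such a pair and 8.36% a perfect half-site. These are letter matches and not shown binding sites.

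The samples held between 26683033 and 36677987 reads in genes, with overlap between the groups. A floor of 3 reads, which covers counting error only, came to between 0.0818 and 0.112 CPM, the counts scaled to library size. The chi-square statistic per gene between replicates was 48.7 in the K-Ras Mll4-/- group and 129 in the K-Ras group, where sampling noise alone would give about 1. Kmt2d, the current name of Mll4, was at 367 and 317 CPM in the K-Ras Mll4-/- samples and at 395 and 526 CPM in the K-Ras samples. The difference was not called (log2 fold change -0.43, SE 0.21, edgeR adjusted p = 0.302), and counts per gene do not resolve a transcript that lacks only some exons. Deletion of Mll4 thus rests on the labels alone.

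Cell type markers differed with the groups and with single libraries, as the plot of summed marker levels shows. Of all tested genes 29.9% were above and 28.5% below in both K-Ras Mll4-/- samples (58.3% without overlap in either direction). The counts of markers given here stand against these shares. The 5 epithelial markers summed to 2806 and 2860.3 CPM in the K-Ras Mll4-/- samples against 817 and 1339 CPM in the K-Ras samples. Epcam, Cdh1, Krt8 and Krt18, 4 of the 5, were above in both K-Ras Mll4-/- samples. Nkx2-1 overlapped, at 47.8 and 64.9 CPM against 45.7 and 62.7 CPM. The 7 endothelial markers summed to 3397 and 2655 CPM against 4784 and 4753 CPM, with 5 of 7 lower in both K-Ras Mll4-/- samples. The 8 ciliated cell markers summed to 89.3 and 98.1 CPM against 164 CPM in K-Ras replicate 1 and 931 CPM in K-Ras replicate 2. All 8 were lower in both K-Ras Mll4-/- samples, and K-Ras replicate 2 stood apart from K-Ras replicate 1 as well. In the 4 club cell markers K-Ras replicate 2 stood apart too, at 3471 CPM, with between 551 and 709 CPM in the other samples. The 7 fibroblast markers summed to 916 and 920.0 CPM in the K-Ras Mll4-/- samples against 2613 and 1192 CPM, with 5 of 7 lower in both K-Ras Mll4-/- samples and K-Ras replicate 1 the highest. The 5 smooth muscle markers summed to 92.4 and 83.4 CPM against 115 and 125 CPM, with 4 of 5 lower in both. The 8 alveolar type 2 markers, surfactant genes among them, are expected of lung tissue and summed to between 18607 and 30543 CPM in all 4 samples. Of these, 1 was above and 2 were below in both K-Ras Mll4-/- samples, and the others overlapped. The 6 alveolar type 1 markers summed to between 652 and 908 CPM. There 3 were above (Aqp5, Rtkn2 and Akap5) and 1 was below (Ager). The 9 leukocyte markers summed to between 2039 and 3140.4 CPM, and Ptprc, which encodes CD45, had 269 and 171 CPM in the K-Ras Mll4-/- samples against 274 and 143 CPM. The 5 mesothelial markers summed to 124 and 224 CPM against 21.8 and 22.6 CPM. Msln alone was above in both K-Ras Mll4-/- samples, at 120 and 221 CPM against 13.8 and 17.0 CPM. Upk1b was below in both, at 2.74 and 2.20 CPM against 6.93 and 4.32 CPM, and so was Wt1, at 0.0621 to 0.138 CPM in all samples. The 6 red blood cell markers summed to between 7.17 and 31.9 CPM, with Hba-a1 and Hbb-b2 at 0 reads in all 4 samples. In such bulk samples fewer cells of a type and less RNA per cell cannot be told apart, and the part of cell content in the results below was not tested. Leaving out each sample in turn cannot test it, because markers that differed in both samples of a group still differ then.

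**Figure D1:**
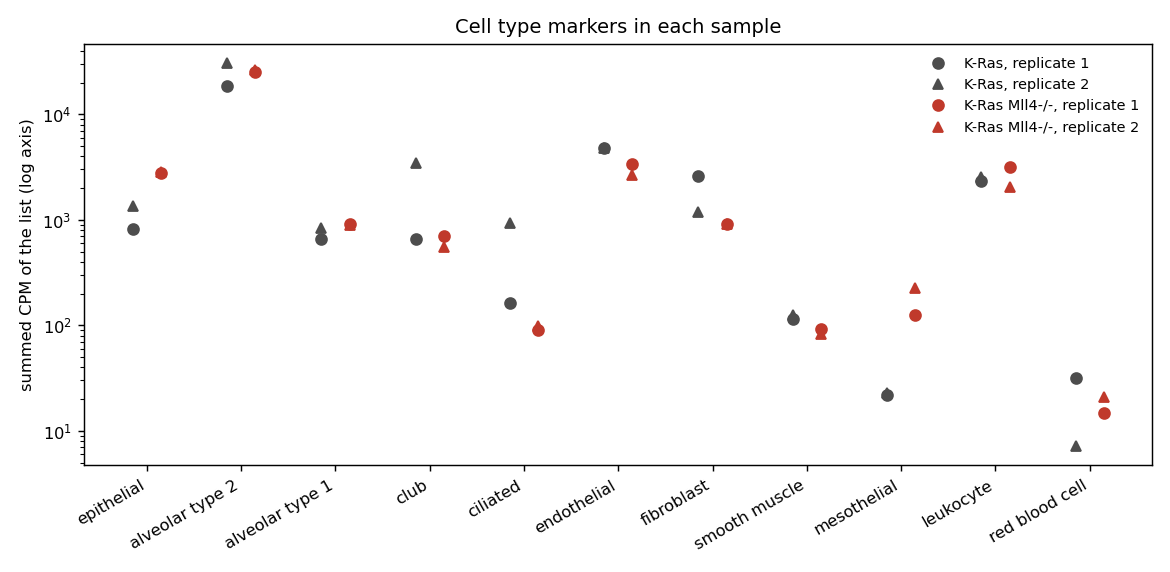
Summed TMM-normalised CPM of each cell type marker list (log axis) in each of the 4 samples, grey for K-Ras and red for K-Ras Mll4-/-, circles for replicate 1 and triangles for replicate 2. The epithelial sums are higher, and the endothelial, fibroblast, smooth muscle and ciliated sums lower, in both K-Ras Mll4-/- samples. K-Ras replicate 2 stands apart in the ciliated and club lists.

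Per length of exon, Ccng1, Bax and Mdm2 had the highest group means of the 10 transcripts and Cdkn2a and Eda2r the lowest, but in K-Ras replicate 2 Cdkn1a was above them all. CPM per kb of exon, the scale on which genes can be compared, was computed with GENCODE exon lengths. In K-Ras tumours Bax led at a mean of 37.9 CPM per kb, followed by Ccng1 at 32.3, Mdm2 at 30.3, Cdkn1a at 26.9, Cdkn1b at 17.8, Trp53 at 13.4, Cdkn2b at 8.28, Bbc3 at 7.12, Cdkn2a at 0.866 and Eda2r at 0.756. In this order the values of Mdm2 and Cdkn1a, of Cdkn1a and Cdkn1b, of Cdkn2b and Bbc3, and of Cdkn2a and Eda2r overlapped between the 2 samples of each gene. The Cdkn1a values in that group, 17.1 and 36.7 CPM per kb, also spanned those of Ccng1 and reached past the lower value of Bax, 34.0. In K-Ras Mll4-/- tumours Ccng1 led at 78.5 CPM per kb, ahead of Bax at 45.4 and Mdm2 at 34.0. The lowest were Eda2r at 2.97 and Cdkn2a at 2.91 CPM per kb, whose values overlapped. Ccng1 thus stood below Bax in the K-Ras group and above it in the K-Ras Mll4-/- group on the per-length scale, without overlap in either.

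**Figure D2:**
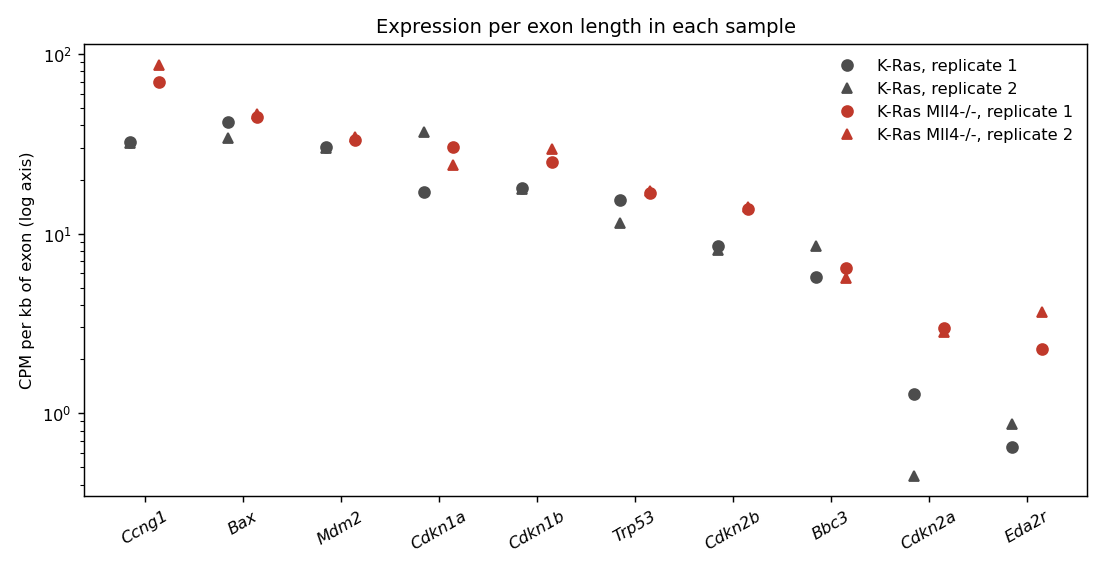
CPM per kb of exon (log axis) of the 10 genes in each sample, ordered by their mean, grey for K-Ras and red for K-Ras Mll4-/-, circles for replicate 1 and triangles for replicate 2. Ccng1, Cdkn2a and Eda2r show the widest gaps between the groups, and the Cdkn1a values of the K-Ras group lie on both sides of those of the K-Ras Mll4-/- group.

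The first comparison asked how the loss of Mll4 bears on these genes, and 0 of the 10 were called by edgeR's quasi-likelihood test (adjusted p under 0.05). The background was 6 of 16001 tested genes called, or 0.0375%. At an unadjusted p under 0.05 there were 5 of the 10, Ccng1, Eda2r, Cdkn2b, Cdkn1b and Cdkn2a, all higher in K-Ras Mll4-/- tumours, where 11.4% of all tested genes were higher at that level and 10.4% lower. In 8 of the 10 both K-Ras Mll4-/- samples were above both K-Ras samples, where 29.9% of all tested genes were, and in 0 of the 10 were both below, where 28.5% were (58.3% without overlap in either direction). The exceptions were Cdkn1a and Bbc3. With scaling by library size alone Bax overlapped too, which left 7. The median log2 fold change was 0.48 over the 10 and -0.01 over all tested genes. Across all tested genes at an unadjusted p under 0.05, 1822 were higher and 1662 lower, against 1471 and 1985 with library size scaling and 1474 and 2020 with upper quartile scaling. With 2 samples a group, 0.333 is the smallest two-sided p of an exact permutation test. DESeq2 called 4 of the 10, Ccng1, Eda2r, Cdkn2b and Cdkn1b, all higher, against 5.02% of tested genes called higher and 10.0% called in either direction. The edgeR likelihood ratio test called Ccng1, Eda2r and Cdkn1b (4.85% of tested genes called higher, 9.39% in either direction), and limma-voom called 0 with 5 at an unadjusted p under 0.05. With the replicate block, for which the labels give no pairing, edgeR called Ccng1 and Eda2r, against 1.36% of all tested genes.

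**Figure D3:**
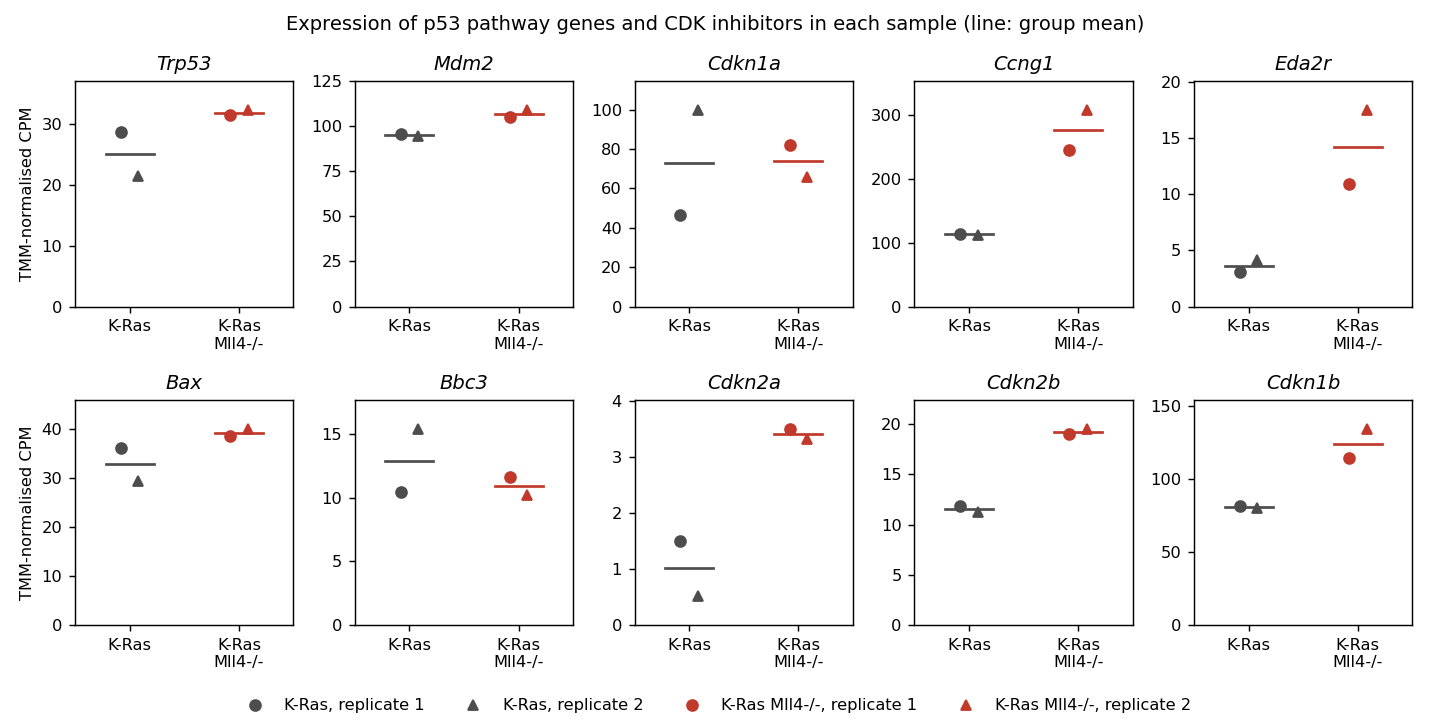
TMM-normalised CPM of each of the 10 genes in each sample (axes from 0), with the group mean as a line, grey for K-Ras and red for K-Ras Mll4-/-. Both red points lie above both grey ones in every panel but those of Cdkn1a and Bbc3, and with library size scaling Bax overlaps as well.

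Trp53, which encodes p53 itself, was at 31.5 and 32.2 CPM in the K-Ras Mll4-/- samples and at 28.7 and 21.4 CPM in the K-Ras samples. The groups did not overlap, K-Ras replicate 1 lay close to the K-Ras Mll4-/- samples and K-Ras replicate 2 was the lowest. Its log2 fold change was 0.35 (SE 0.19, 95% interval -0.15 to 0.85, edgeR adjusted p = 0.342). GENCODE lists a processed pseudogene, Trp53-ps, and reads shared with it could be lost from Trp53, so its count is uncertain to that extent. The count also says nothing of p53 protein, which is regulated mainly by its stability.

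Mdm2, the ubiquitin ligase that p53 induces and that degrades p53 in turn, was the steadiest of the 10. It was at 105 and 109 CPM in the K-Ras Mll4-/- samples and at 95.7 and 94.8 CPM in the K-Ras samples, close to each other and without overlap. The log2 fold change was 0.17 (SE 0.12, 95% interval -0.14 to 0.47, edgeR adjusted p = 0.439), and it stayed between 0.10 and 0.20 in all 15 alternatives. The ratio of Mdm2 to Trp53 reads was 3.335 and 3.38 in the K-Ras Mll4-/- samples, against 3.33 and 4.43 in K-Ras tumours. That ratio was highest in K-Ras replicate 2, where Trp53 was lowest.

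Cdkn1a overlapped between the groups while Ccng1 did not. Cdkn1a encodes p21, the CDK inhibitor through which p53 halts the cell cycle. It was at 82.3 and 65.9 CPM in the K-Ras Mll4-/- samples and at 46.4 and 99.6 CPM in the K-Ras samples. K-Ras replicate 1 was the lowest of the 4 and K-Ras replicate 2 the highest, and they enclosed the other group. The log2 fold change was 0.02 (SE 0.39, edgeR adjusted p = 0.980), with a 95% interval from -1.03 to 1.07. Without K-Ras replicate 1 it was -0.42 and without K-Ras replicate 2 it was 0.66. K-Ras replicate 2 is the library with the highest ciliated and club cell markers, and their part in its Cdkn1a level was not tested. GENCODE places a gene on the opposite strand over 273 of the 2718 exon bases of Cdkn1a, and with the strand setting unknown its reads cannot be told apart there.

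Ccng1 encodes cyclin G1, a p53 target that takes part in the feedback on p53 through Mdm2. It was at 244 and 307 CPM in the K-Ras Mll4-/- samples and at 114 and 113 CPM in the K-Ras samples. Both K-Ras Mll4-/- samples were more than 2 times the K-Ras level, and the K-Ras samples were nearly alike. The log2 fold change was 1.28 (SE 0.17, 95% interval 0.84 to 1.73), the smallest p-value among the 10 (unadjusted p = 8.63e-04, edgeR adjusted p = 0.128, rank 107 of 16001). It lay between 1.10 and 1.44 when single samples were left out. The ratio of Ccng1 to Cdkn1a reads was 2.97 and 4.66 in the K-Ras Mll4-/- samples, against 2.45 and 1.13 in K-Ras tumours, and thus did not overlap either. The upstream Cdkn1a window and the Ccng1 window printed above each hold 2 accepted pairs of p53 half-sites, as the Bax window does. In each window the 2 pairs share a half-site.

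Eda2r encodes the receptor of the ectodysplasin A2 ligand, a member of the tumour necrosis factor receptor family and a known p53 target. It was at 10.97 and 17.5 CPM in the K-Ras Mll4-/- samples and at 3.11 and 4.15 CPM in the K-Ras samples, from 288, 564, 95 and 150 reads. The lower K-Ras Mll4-/- sample was still well above both K-Ras samples. The log2 fold change of 1.97 was the largest of the 10 (SE 0.34, 95% interval 1.08 to 2.86, edgeR adjusted p = 0.147), and it was between 1.59 and 2.27 without single samples. Its window held no p53 half-site.

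Bax and Bbc3 carry the death arm of the pathway, Bax as the pore former of the mitochondrial outer membrane and Bbc3 as the BH3-only protein PUMA that sets it off. Bax was at 38.6 and 40.1 CPM in the K-Ras Mll4-/- samples and at 36.2 and 29.5 CPM in the K-Ras samples, and the groups came close without meeting. Its log2 fold change was 0.26 (SE 0.16, 95% interval -0.15 to 0.67, edgeR adjusted p = 0.378). A further annotated gene shares 192 of the 867 exon bases of Bax on the same strand, which makes that part of its count uncertain. Bbc3 was at 11.6 and 10.2 CPM in the K-Ras Mll4-/- samples and at 10.4 and 15.4 CPM in the K-Ras samples. It overlapped between the groups and was highest in K-Ras replicate 2, as Cdkn1a was. Its log2 fold change was -0.24 (SE 0.26, 95% interval -0.93 to 0.44, edgeR adjusted p = 0.614), and without K-Ras replicate 2 it turned to 0.05. The ratio of Bax to Bbc3 reads was 3.32 and 3.92 in the K-Ras Mll4-/- samples against 3.47 and 1.92 in the K-Ras samples.

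**Figure D4:**
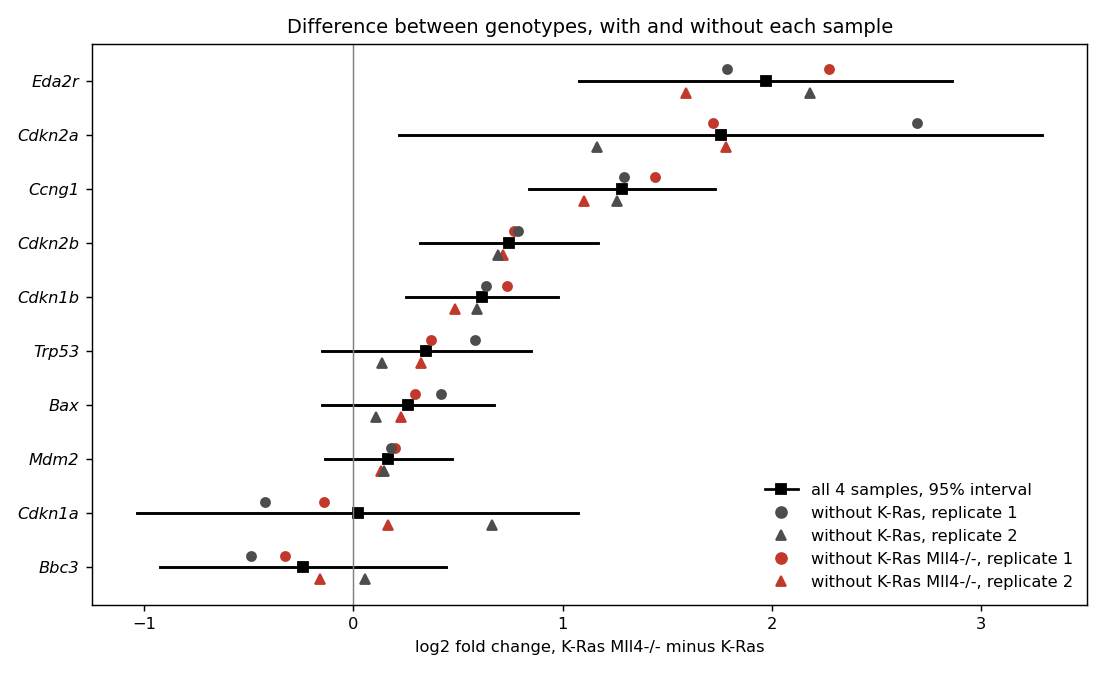
Log2 fold change (K-Ras Mll4-/- minus K-Ras) of each of the 10 genes, with black squares and lines for the fit over all 4 samples and its 95% interval, and coloured points for the fits that leave out 1 sample. The intervals of Eda2r, Cdkn2a, Ccng1, Cdkn2b and Cdkn1b lie above 0, and the points of Cdkn1a and Bbc3 fall on both sides of 0.

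The Cdkn2a and Cdkn2b genes were both higher in K-Ras Mll4-/- tumours. One symbol, Cdkn2a, covers a pair of proteins that start from different promoters, and the windows before its annotated starts are printed here because counts per symbol add the transcripts together. The upstream start belongs to the Arf transcript and the downstream one to the p16 transcript. Cdkn2b is the next gene on the same strand of chromosome 4.
Cdkn2a, upstream start, chr4:89294620-89294869, minus strand: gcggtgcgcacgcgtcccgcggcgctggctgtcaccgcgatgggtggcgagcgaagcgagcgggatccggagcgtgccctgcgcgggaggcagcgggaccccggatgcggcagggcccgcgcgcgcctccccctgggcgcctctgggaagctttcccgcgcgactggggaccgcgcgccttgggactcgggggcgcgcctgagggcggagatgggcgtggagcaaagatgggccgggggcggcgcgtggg
Cdkn2a, downstream start, chr4:89282193-89282442, minus strand: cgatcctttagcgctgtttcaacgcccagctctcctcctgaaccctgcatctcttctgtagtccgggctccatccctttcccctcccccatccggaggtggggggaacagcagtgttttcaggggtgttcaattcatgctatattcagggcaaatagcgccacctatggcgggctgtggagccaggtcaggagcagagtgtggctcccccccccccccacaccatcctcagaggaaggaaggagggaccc
Cdkn2b, chr4:89311033-89311282, minus strand: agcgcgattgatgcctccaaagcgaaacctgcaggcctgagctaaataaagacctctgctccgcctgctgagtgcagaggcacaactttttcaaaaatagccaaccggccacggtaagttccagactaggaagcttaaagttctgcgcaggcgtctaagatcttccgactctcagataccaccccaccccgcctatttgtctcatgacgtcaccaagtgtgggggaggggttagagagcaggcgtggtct
No letters are in capitals because no p53 half-site was found. In the windows of 300 bases around the starts there were 45 CpG dinucleotides at the upstream start of Cdkn2a, 12 at the downstream start and 18 at Cdkn2b.

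Cdkn2a was at 3.50 and 3.32 CPM in the K-Ras Mll4-/- samples and at 1.504 and 0.526 CPM in the K-Ras samples, from 92, 107, 46 and 19 reads. All 4 counts were above the floor of 3 reads, and K-Ras replicate 2 was the lowest. Its log2 fold change was 1.75 (SE 0.58, 95% interval 0.22 to 3.29, edgeR adjusted p = 0.203), and it was 1.17 without K-Ras replicate 2 and 2.69 without K-Ras replicate 1. Which of the transcripts carried the difference cannot be read from these counts.

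Cdkn2b, the p15 gene, was at 19.0 and 19.5 CPM in the K-Ras Mll4-/- samples and at 11.8 and 11.2 CPM in the K-Ras samples. Replicates of each group were nearly alike and the groups were apart, with a log2 fold change of 0.74 (SE 0.16, 95% interval 0.32 to 1.17, edgeR adjusted p = 0.156), and all 15 alternatives gave between 0.69 and 0.79. Reads on Cdkn2b exceeded those on Cdkn2a by 5.42 and 5.88 times in the K-Ras Mll4-/- samples and by 7.85 and 21.3 times in the K-Ras samples. Mtap, the next gene beyond Cdkn2a and an enzyme gene of methionine salvage, was at 35.4 and 40.2 CPM in the K-Ras Mll4-/- samples against 18.8 and 14.0 CPM (log2 fold change 1.20, SE 0.20, edgeR adjusted p = 0.147). Dmrta1, on the other side, was at 0.457 to 0.775 CPM with a log2 fold change of -0.49. Reads on all 3 of Cdkn2a, Cdkn2b and Mtap were present in each of the 4 samples.

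Cdkn1b encodes p27, a CDK inhibitor whose gene is not a classic p53 target and whose protein is controlled by the SKP2 ubiquitin ligase. It was at 114 and 134 CPM in the K-Ras Mll4-/- samples and at 81.7 and 80.2 CPM in the K-Ras samples. The groups were apart and the K-Ras samples nearly alike, with a log2 fold change of 0.62 (SE 0.14, 95% interval 0.25 to 0.98, edgeR adjusted p = 0.157), and it was between 0.49 and 0.73 without single samples. Of the 7 regulators of p27 listed, 1 was higher and 0 lower at an unadjusted p under 0.05, where 11.4% and 10.4% of all tested genes were. It was Cks1b, the partner of SKP2 in p27 destruction, at 11.1 and 11.8 CPM against 5.04 and 3.27 CPM (log2 fold change 1.46, SE 0.30, edgeR adjusted p = 0.153). Cul1, the scaffold of that ligase, followed at 154 and 184 CPM against 129 and 130 CPM (log2 fold change 0.38, edgeR adjusted p = 0.232).

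The other genes of the pathway were described from 9 lists with 140 genes, of which 139 were tested. By the edgeR quasi-likelihood test 0 of the 139 were called, 50 had an unadjusted p under 0.05 (37 higher and 13 lower), DESeq2 called 31 (22 higher and 9 lower) and limma-voom called 0. Over all tested genes 11.4% were higher and 10.4% lower at that unadjusted level, and DESeq2 called 10.0%. Without K-Ras replicate 1 the quasi-likelihood test called 7, against 3.20% of all genes tested then. Of all tested genes 29.9% were above and 28.5% below in both K-Ras Mll4-/- samples, and the counts of each list stand against these shares. The plot of log2 fold changes by list shows how far each list spreads.

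The 32 other p53 target genes held members on either side. At an unadjusted p under 0.05 there were 8 higher and 5 lower, where 11.4% and 10.4% of all tested genes were. Their median log2 fold change was -0.06. In both K-Ras Mll4-/- samples 11 were above and 12 below, near the 29.9% and 28.5% of all tested genes. Perp, a desmosome-associated p53 target, was at 65.2 and 72.5 CPM against 28.6 and 29.6 CPM in the K-Ras samples (log2 fold change 1.24, SE 0.13, edgeR adjusted p = 0.116). Psrc1, a spindle-associated gene, was at 34.2 and 56.5 CPM against 5.69 and 8.11 CPM (log2 fold change 2.71, SE 0.34, edgeR adjusted p = 0.128). Both were higher in K-Ras Mll4-/- tumours by more than most of the list. Tnfrsf10b, the death receptor of the TRAIL ligand, was at 28.8 and 29.9 CPM against 17.5 and 14.7 CPM (log2 fold change 0.86, SE 0.16, edgeR adjusted p = 0.147). Pmaip1, the gene of the BH3-only protein NOXA, was the other way round, at 32.0 and 20.9 CPM against 58.0 and 57.0 CPM (log2 fold change -1.12, SE 0.24, edgeR adjusted p = 0.156). DESeq2 called these 4 and Fas, 5 of the 32 in all.

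The 17 regulators and relatives of p53 held the widest differences. At an unadjusted p under 0.05 there were 4 higher and 1 lower, where 11.4% and 10.4% of all tested genes were. The median log2 fold change was 0.13. Trp63, a p53 relative known from basal epithelium, was at 18.5 and 88.6 CPM in the K-Ras Mll4-/- samples and at 1.602 and 4.48 CPM in the K-Ras samples (log2 fold change 4.13, SE 0.99, edgeR adjusted p = 0.166). The groups were apart, but the K-Ras Mll4-/- samples lay far from each other. Trp73, a relative known from ciliated cells, was at 1.10 and 1.05 CPM in the K-Ras Mll4-/- samples and at 3.01 and 13.8 CPM in the K-Ras samples (log2 fold change -2.95, SE 0.82, edgeR adjusted p = 0.180). It was highest in K-Ras replicate 2, which also had the highest ciliated sum, and the part of ciliated cells in it was not tested. Chek2 and Chek1, the kinases that signal DNA damage to p53 and the cell cycle, had log2 fold changes of 0.85 and 1.21 (SE 0.21 and 0.39, edgeR adjusted p = 0.168 and 0.198).

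Of 16 genes of the RB axis, on which the CDK inhibitors act, 6 had an unadjusted p under 0.05 and all 6 were higher, where 11.4% of all tested genes were. Both K-Ras Mll4-/- samples were above in 9 of the 16 (8 with library size or upper quartile scaling), and the median log2 fold change was 0.33. Ccnd2 and Ccnd1, the cyclin D genes whose kinases p15 and p16 block, were at 179 and 167 CPM against 91.3 and 66.1 CPM and at 438 and 608 CPM against 229 and 320 CPM. Their log2 fold changes were 1.13 (SE 0.20, edgeR adjusted p = 0.147) and 0.93 (SE 0.27, edgeR adjusted p = 0.184). Ccne2 and Cdk4 followed with 0.77 (SE 0.23) and 0.40 (SE 0.12), at edgeR adjusted p = 0.186 and 0.190. The other CDK inhibitors gave 0 of 3 at an unadjusted p under 0.05 by the edgeR test and 0 by DESeq2. Cdkn1c, the p57 gene, was at 16.5 and 37.2 CPM against 9.22 and 15.8 CPM, Cdkn2c, the p18 gene, at 7.54 and 7.69 CPM against 12.8 and 9.55 CPM, and Cdkn2d had a log2 fold change of 0.01.

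The next list holds 22 genes taken as repressed through p21, by the DREAM complex or by loss of E2F activity, nearly all of them proliferation genes. All 22 were above in both K-Ras Mll4-/- samples, also with each of the other scalings. Among all tested genes 29.9% were. At an unadjusted p under 0.05 there were 15, all higher, and the median log2 fold change was 0.90, between 0.78 and 1.00 when single samples were left out. Cdk1, the mitotic kinase, was at 16.5 and 16.8 CPM against 3.53 and 5.26 CPM (log2 fold change 1.92, SE 0.27, edgeR adjusted p = 0.135), and Mki67, the Ki-67 gene, at 160 and 173 CPM against 92.8 and 82.8 CPM (log2 fold change 0.92, SE 0.14, edgeR adjusted p = 0.135). Ccnb2 and Ccna2 had log2 fold changes of 1.32 and 1.10 (edgeR adjusted p = 0.144 for each). These genes were higher in the same samples in which Cdkn1b, Cdkn2a and Cdkn2b were higher. Cdkn1a, the p21 gene itself, overlapped between the groups, at 82.3 and 65.9 CPM against 46.4 and 99.6 CPM (log2 fold change 0.02). The epithelial markers summed to 2806 and 2860.3 CPM in the K-Ras Mll4-/- samples against 817 and 1339 CPM, though Nkx2-1 among them overlapped. The part of p21 and of cell content in the result was not tested.

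Among 13 genes of the BCL2 family, which decide on mitochondrial cell death, 1 was higher and 2 lower at an unadjusted p under 0.05. Of all tested genes 11.4% were higher and 10.4% lower at that level. The list's median log2 fold change was -0.09. Bmf and Bik, both BH3-only genes, were at 40.3 and 34.4 CPM against 66.1 and 70.1 CPM and at 5.64 and 4.59 CPM against 8.08 and 10.0 CPM, with log2 fold changes of -0.87 (SE 0.14, edgeR adjusted p = 0.144) and -0.83 (SE 0.26, edgeR adjusted p = 0.192). Bok, a relative of Bax, was at 20.7 and 21.6 CPM against 7.85 and 10.2 CPM (log2 fold change 1.23, SE 0.20, edgeR adjusted p = 0.147). Hrk, another BH3-only gene, was at 0.267 and 0.186 CPM against 0.327 and 1.77 CPM. Bmf and Bik were thus lower in both K-Ras Mll4-/- samples and Bok higher.

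Of the 16 regulators and neighbours of the Cdkn2a locus, 15 were tested and Twist1 fell under the count filter. At an unadjusted p under 0.05 there were 2 higher and 2 lower, where 11.4% of all tested genes were higher and 10.4% lower. Tbx2 and Tbx3, transcription factors known to repress Cdkn2a and Cdkn1a, were at 35.5 and 33.8 CPM against 62.3 and 73.0 CPM and at 42.05 and 41.7 CPM against 79.3 and 112 CPM. Their log2 fold changes were -0.97 (SE 0.14, edgeR adjusted p = 0.135) and -1.19 (SE 0.20, edgeR adjusted p = 0.147). Ezh2, the Polycomb methyltransferase that silences the locus, was at 26.2 and 33.9 CPM against 17.8 and 14.9 CPM (log2 fold change 0.88, SE 0.20, edgeR adjusted p = 0.163). Of the repressors named so far, Tbx2 and Tbx3 were lower and Ezh2 higher. Other regulators on the list differed less. Jun was lower in both K-Ras Mll4-/- samples (log2 fold change -0.63, SE 0.25, edgeR adjusted p = 0.241). Bmi1 and Suz12 overlapped between the groups (log2 fold changes -0.04 and 0.15), and Cbx7 and Cbx8 had log2 fold changes of -0.28 and 0.36.

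The 14 genes of the senescence-associated secretion had a median log2 fold change of -0.56. At an unadjusted p under 0.05 there were 3 lower and 0 higher, where 10.4% and 11.4% of all tested genes were. Il6, an inflammatory cytokine gene, was at 1.03 and 1.24 CPM against 4.25 and 4.46 CPM (log2 fold change -1.93, SE 0.32, edgeR adjusted p = 0.145). Ccl2, a monocyte chemokine gene, was at 0.419 and 0.558 CPM against 2.98 and 1.49 CPM (log2 fold change -2.17, edgeR adjusted p = 0.166). Il1b was at 35.1 and 16.4 CPM against 117 and 51.8 CPM (log2 fold change -1.71, edgeR adjusted p = 0.201), and Cxcl5 at 2.06 and 0.962 CPM against 5.30 and 2.71 CPM (log2 fold change -1.41, edgeR adjusted p = 0.246). Within both groups Il1b and Cxcl5 were highest in replicate 1. The list's median was 0.02 without K-Ras replicate 1, -1.22 without K-Ras replicate 2, -1.53 without K-Ras Mll4-/- replicate 1 and -0.33 without K-Ras Mll4-/- replicate 2, so it moved with every sample left out. The myeloid genes Itgam and S100a8 were also highest in K-Ras replicate 1, at 63.3 and 69.2 CPM. In the other samples they were at 13.4 to 26.9 CPM and 15.5 to 17.9 CPM. Cd68 and Csf1r, from the same leukocyte markers, overlapped between the groups and were higher in replicate 1 of both. Cd68 was at 188 and 83.6 CPM against 237 and 48.1 CPM, and Csf1r at 50.5 and 23.4 CPM against 53.6 and 28.4 CPM. The part of these myeloid genes in the list's values was not tested.

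**Figure D5:**
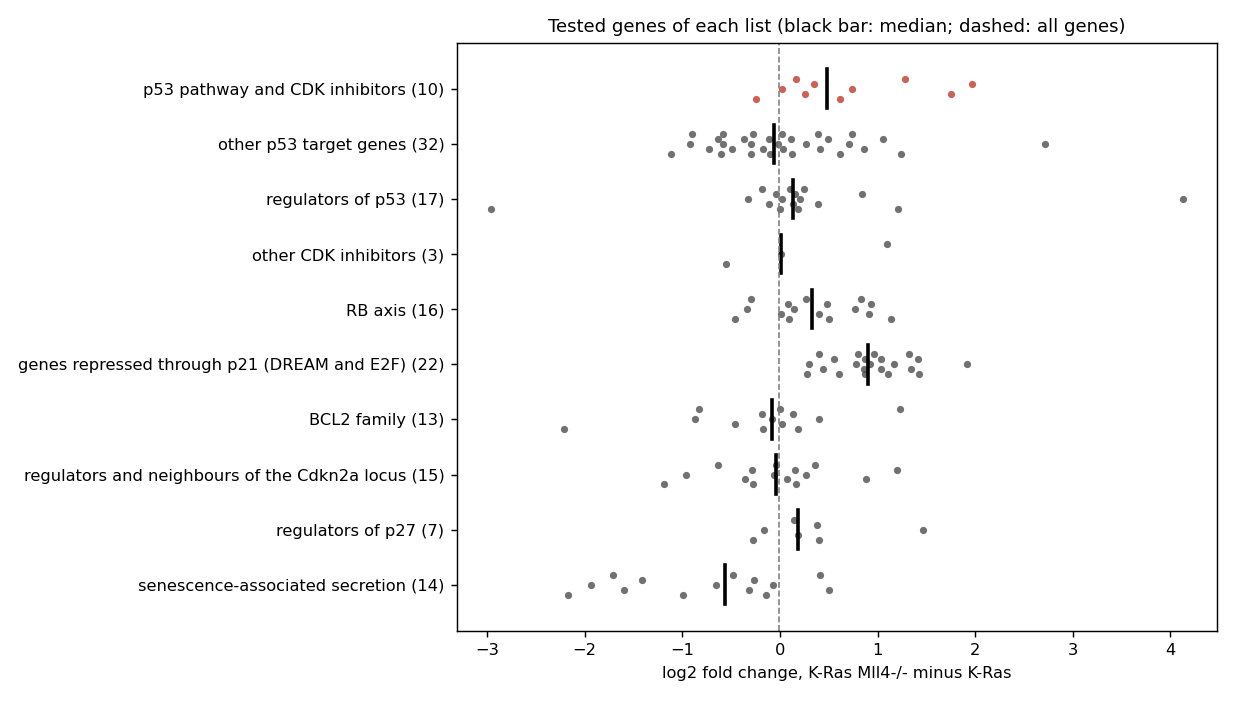
Log2 fold change (K-Ras Mll4-/- minus K-Ras) of every tested gene in each list, with the number of tested genes in brackets, the list median as a black bar and the median of all 16001 tested genes as a dashed line. The 10 genes of the main set are in red with a median of 0.48, and the list repressed through p21 lies wholly above 0.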

How the data were processed

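RNA sequencing was done on 4 mouse lung tumour samples, 2 per group, with groups taken from the sample titles. Each sample has 1 deposited file of read counts by gene symbol, not normalised. CASAVA 1.4, STAR and HTSeq and the build mm9 are named in the submitters' processing notes. The annotation and strand setting are not given in the sources used here. Reads given to no gene took 60.1% to 65.6% of all reads (31.5% to 36.7% aligned to more than 1 place) and stayed out of library sizes and tests, which undercounts genes that have close copies. The labels name no batch.

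K-Ras Mll4-/- minus K-Ras was fitted with edgeR 4.0.16 in R 4.3.3 over all 4 samples (filterByExpr, TMM scaling, robust quasi-likelihood test, Benjamini-Hochberg adjustment over 16001 genes, called under 0.05). The fit was also run on simulated data with a common spread for all genes and both groups. That run does not cover the unequal spread between replicates seen here. The SE is the log2 fold change over the square root of F, and 95% intervals use the fit's degrees of freedom. CPM is TMM-normalised. CPM per kb uses exons of GENCODE M21 protein-coding basic transcripts. Alternatives were other scalings, count filters, DESeq2 1.42.0, the likelihood ratio test, limma 3.58.1 voom, the replicate number as a block, GC and length offsets (mgcv 1.9.3), and leaving out each sample.

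The 10 genes and the lists were chosen with earlier results of these data known, so no set test was run. From each list the 4 genes with the smallest p-value were named (2 from lists under 10 genes). Dmrta1, Itgam, S100a8, Cdkn2d, Fas, Jun, Bmi1, Suz12, Cbx7, Cbx8 and the marker genes were named after their values were seen.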

Additional observations from a re-analysis of the deposited data

How the results depend on the processing

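The 5 genes at an unadjusted p under 0.05 (Ccng1, Eda2r, Cdkn2b, Cdkn1b and Cdkn2a) kept a positive log2 fold change in all 15 alternatives, as did Trp53, Mdm2 and Bax. Against 0 of the 10 called, DESeq2 called 4, the edgeR likelihood ratio test 3 and the fit with the replicate block 2 (1.36% of all tested genes; Ccng1 and Eda2r, edgeR adjusted p = 0.0499 and 0.0488). The fits that left out 1 sample called 0 of the 10, and so did the block combined with offsets for GC content and length. Against 6 called among all genes, there were 44 with no count filter, 1601 with DESeq2, 1503 with the likelihood ratio test, 0 with limma-voom, 217 with the replicate block, 131 with the block and the offsets, and 0 to 528 when single samples were left out, with 528 without K-Ras replicate 1 and 0 without each of the others. Against 0 called in the 9 lists, there were 31 with DESeq2, 30 with the likelihood ratio test, 4 with the replicate block, 3 with the block and the offsets, and 0 to 7 without single samples. The cause of these differences was not tested. The log2 fold change of Cdkn1a reversed to -0.0151 with library size scaling, -0.0324 with the upper quartile, -0.0032 with at least 50 reads in 2 samples, -0.14 without K-Ras Mll4-/- replicate 1 and -0.42 without K-Ras replicate 1, in a range up to 0.66 (without K-Ras replicate 2). That of Bbc3 reversed to 0.0114 with the offsets, 0.0192 with the block and the offsets and 0.0531 without K-Ras replicate 2, in a range from -0.49. That of Ptprc reversed to -0.0062 with the offsets, -0.28 without K-Ras Mll4-/- replicate 1 and -0.33 without K-Ras replicate 2, in a range up to 0.63. The labels do not say what same-numbered samples share. Their deviations from the group means correlated at 0.21 across genes, a value from 2 pairs that does not settle the pairing. Leaving out a sample leaves 1 in its group, which is then assumed to vary like the other group. Depth limits Cdkn2a most, with 19 reads in K-Ras replicate 2.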
